A study of Homo sapiens with 4 samples.

Results

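EGF family ligands and the ERBB receptors they bind were followed in BEAS-2B cells, a human bronchial epithelial line that was immortalised. The set was chosen by gene symbol and has 10 genes among the 24424 symbols of the count files: the EGFR ligand genes EREG, AREG, HBEGF, TGFA, EPGN and BTC, the neuregulin gene NRG1, and the receptor genes EGFR, ERBB2 and ERBB3. RNA was sequenced from 4 libraries, each the only one of its group. They were cells transfected with an siRNA against occludin for 24 h and then given LPS (bacterial lipopolysaccharide) for 2 h, called siOCLN+LPS; cells transfected with wild-type occludin for 24 h and given LPS for 2 h, called the library labelled wtOCLN+LPS; cells given LPS for 2 h; and untreated control cells. All cells were wild type by genotype label and grew in the same bronchial epithelial medium with its supplement kit. No LPS dose is given. The labels of the LPS and control libraries name no transfection, mock or otherwise, so both are called untransfected here. Transfection and the change in occludin therefore cannot be told apart in any comparison of a transfected library with an untransfected one.

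The ERBB receptors are tyrosine kinases of the cell surface that act in pairs. Most EGF family ligands are made as membrane-bound precursors and are released by ADAM proteases, after which they bind EGFR, ERBB3 or ERBB4, while ERBB2 has no known ligand and serves as a partner of the others. Signals run through RAS and ERK and through PI3-kinase, and in airway epithelium the family is known for its part in growth, wound repair and mucus production.

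With 1 library a group there was no replicate check, no test was possible, and every statement compares libraries, not conditions. Levels are given as CPM, which is counts scaled to a library total of 1000000, and ratios of CPM carry exact 95% intervals that cover counting error only. Totals ran from 13867494 to 17500031 counts, so 1 count was worth 0.0571 to 0.0721 CPM, and a count of 0 allowed a level of up to 0.171 to 0.216 CPM (3 counts). A gene was compared where it reached 1 CPM in either library, and was called where it lay at least 2-fold apart as a difference in log2(CPM + 1), a scale on which changes of low genes look smaller than they are. OCLN, the targeted gene, stood at 21.0, 29.7, 50.4 and 55.4 CPM in siOCLN+LPS, the library labelled wtOCLN+LPS, LPS and control. In counted RNA the library labelled wtOCLN+LPS therefore went against its label, and no direction drawn from it is read here as one of raised occludin. These counts do not measure occludin protein. The epithelial markers KRT8 and CDH1 were present throughout (KRT8 at 976, 919, 372 and 442 CPM, CDH1 at 105, 104, 42.5 and 45.6 CPM, in the same order), and KRT19 and TP63, also epithelial markers, stood at 24.8, 18.3, 3.68 and 5.41 CPM and at 12.2, 21.1, 2.96 and 2.01 CPM. Markers of other cell types were mixed. The fibroblast markers COL1A1, at 55.2 to 62.7 CPM, and PDGFRB, at 12.3 to 55.4 CPM, were present, while DCN, LUM and COL3A1 had at most 1 count in any library. The leukocyte marker CD68 had 87 to 263 counts, while CD3E had 0 counts in all 4 libraries. The epithelial markers EPCAM and KRT14 were low, at 1.26 to 2.67 CPM and 0.458 to 1.07 CPM. COL1A1, DCN, LUM, COL3A1, CD3E, EPCAM and KRT14 were chosen after their values were seen.

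The genes EPGN, EREG, AREG and BTC follow one another on chromosome 4, with MTHFD2L before EPGN and PARM1 after BTC, in the RefSeq order of protein-coding genes on GRCh38.p14. This neighbourhood is shown because it holds the 2 members that passed 2-fold in a comparison with LPS or control, EREG and EPGN, beside a gene, AREG, that did not. RefSeq promoter entries matched 8 of the 10 members; ERBB3 and NRG1 were not matched. The 250 bases before the RefSeq start of EPGN, EREG and AREG are printed 5′ to 3′, with capitals for the matches to the searched motifs.
EPGN (chr4:74308220-74308469, plus strand): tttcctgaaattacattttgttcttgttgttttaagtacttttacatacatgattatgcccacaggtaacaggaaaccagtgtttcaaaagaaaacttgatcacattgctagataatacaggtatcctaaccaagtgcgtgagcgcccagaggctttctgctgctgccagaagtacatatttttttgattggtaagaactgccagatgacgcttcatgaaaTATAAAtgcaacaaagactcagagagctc
EREG (chr4:74364895-74365144, plus strand): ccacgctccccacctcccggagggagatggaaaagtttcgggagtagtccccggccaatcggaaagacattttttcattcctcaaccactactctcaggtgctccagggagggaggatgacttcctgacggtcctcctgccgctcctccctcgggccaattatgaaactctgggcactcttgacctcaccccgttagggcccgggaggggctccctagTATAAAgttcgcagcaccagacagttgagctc
AREG (chr4:74444886-74445135, plus strand): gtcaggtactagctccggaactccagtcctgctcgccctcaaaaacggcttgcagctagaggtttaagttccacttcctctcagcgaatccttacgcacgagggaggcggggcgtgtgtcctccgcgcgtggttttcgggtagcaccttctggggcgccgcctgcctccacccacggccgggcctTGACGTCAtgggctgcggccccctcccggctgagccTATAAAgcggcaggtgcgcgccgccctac
A TATA box, TATAAA on the given strand, lay at positions -29 to -24 from the start in EPGN, -32 to -27 in EREG and -29 to -24 in AREG, and was held by 6.84% of 34788 promoter windows of this length. AREG also held the cAMP response element TGACGTCA at -65 to -58, found in 1.64% of windows on either strand. Neither the AP-1 motif TGANTCA (6.59% of windows, either strand) nor the kB consensus (9.95%, either strand) matched in these windows, and no matches overlapped. The windows differed in base composition, with a GC content of 38% in EPGN, 58% in EREG and 65.2% in AREG. A match is a run of letters and says nothing of binding.

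EREG, which encodes epiregulin, a ligand of EGFR and ERBB4, was the most abundant member. It stood at 631 CPM in siOCLN+LPS, 614 CPM in the library labelled wtOCLN+LPS, 941 CPM in LPS and 396 CPM in control. The LPS library was the highest and control the lowest, with both transfected libraries between them and close together. Per kilobase of the longest GENCODE transcript, its level was 137, 133, 204 and 85.7 CPM per kb in the same order. On this scale, used here to set genes side by side, HBEGF and AREG lay at 13.0 to 20.4 CPM per kb over the 4 libraries. EREG ranked 165 of 21849 genes by CPM per kb in LPS and 563 in control.

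HBEGF, heparin-binding EGF-like growth factor, a ligand of EGFR and ERBB4, stood at 34.4 CPM in siOCLN+LPS, 31.0 CPM in the library labelled wtOCLN+LPS, 48.7 CPM in LPS and 41.7 CPM in control. Both transfected libraries lay below both untransfected ones. AREG, the EGFR ligand amphiregulin, was nearly level, at 17.9, 17.7, 19.1 and 16.7 CPM in the same order. AREG is uncertain because RefSeq lists AREGB, the name of a near-identical copy in the hg19 build, as its synonym, and how the authors' counting treated reads that match both is not given in the sources used here.

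EPGN, which encodes epigen, a ligand of EGFR, was scarce, with 27, 24, 52 and 62 counts in siOCLN+LPS, the library labelled wtOCLN+LPS, LPS and control. This was 1.54, 1.37, 3.75 and 3.90 CPM, so the transfected libraries were low and the untransfected ones high. TGFA, transforming growth factor alpha, a ligand of EGFR, had 29, 30, 21 and 25 counts, or 1.66, 1.71, 1.51 and 1.57 CPM. BTC, betacellulin, a ligand of EGFR and ERBB4, had 4, 10, 0 and 2 counts, and NRG1, a ligand of ERBB3 and ERBB4, had 1, 4, 4 and 0. Neither BTC nor NRG1 reached 1 CPM in any library, so neither was compared by the threshold. For BTC, the 10 counts of the library labelled wtOCLN+LPS were 2.64-fold the 3-count limit of 0.216 CPM for LPS, which had 0 counts. This ratio ignores the counting error of the 10 counts, so it is no lower bound. Their exact 95% interval began at 0.274 CPM, against an upper end of 0.266 CPM for the 0 counts.

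Among the receptor genes, EGFR stood at 159 CPM in siOCLN+LPS, 172 CPM in the library labelled wtOCLN+LPS, 139 CPM in LPS and 113 CPM in control. Its lowest value was in control and its highest in the library labelled wtOCLN+LPS. ERBB2 stood at 134, 131, 95.04 and 119 CPM in the same order, lowest in LPS. ERBB3, whose kinase is weak and which docks PI3-kinase, stood at 13.6, 12.5, 7.43 and 8.94 CPM, with both transfected libraries above both untransfected ones. Per kilobase of the longest transcript, ERBB2 exceeded EGFR in each library (27.3 against 16.2 CPM per kb in siOCLN+LPS and 24.1 against 11.5 CPM per kb in control). ERBB3 reached at most 2.30 CPM per kb. The order of ERBB2 and EGFR rests on those lengths, 4930 bases for ERBB2 and 9821 for EGFR. Which transcripts these cells used was not determined, so this order is uncertain. ERBB4, the gene of the other receptor, and the ligand gene EGF had 0 counts in all 4 libraries.

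**Figure D1:**
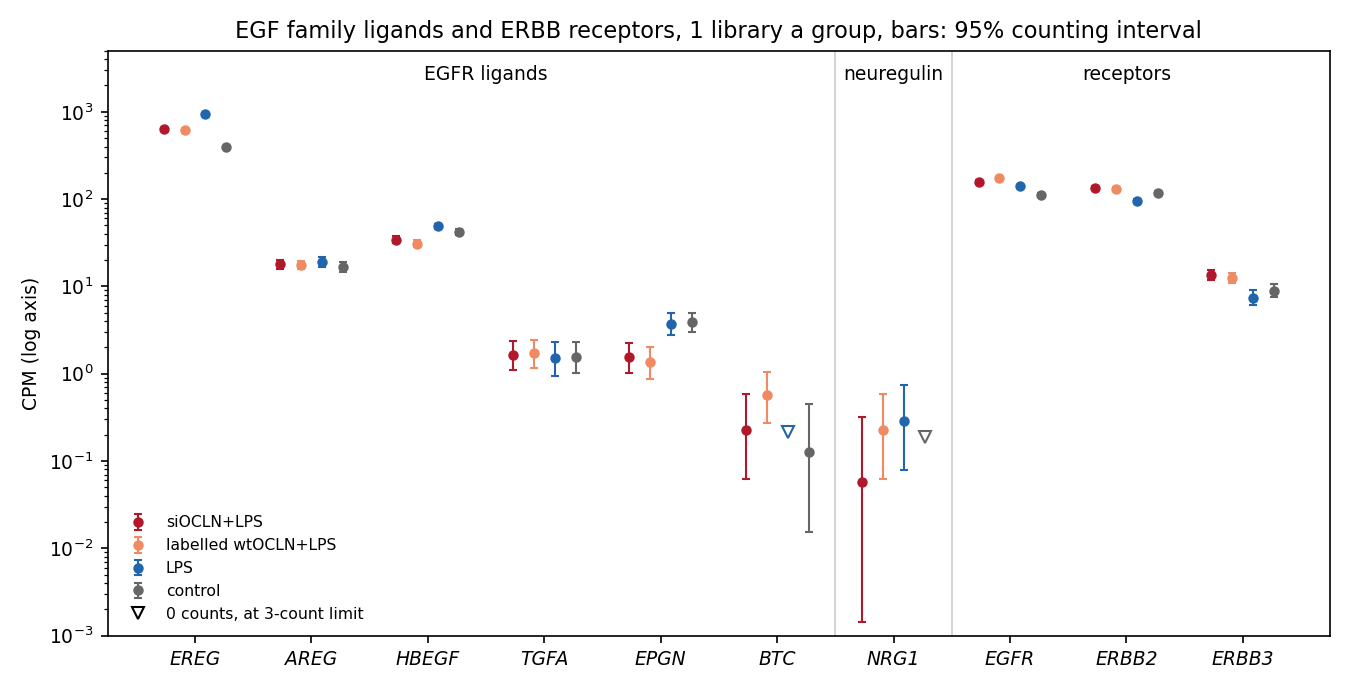
CPM on a log axis of the 10 members in the 4 libraries, with exact 95% counting intervals as bars and open triangles at the 3-count limit where a library had 0 counts. EREG was highest in LPS at 941 CPM, against 396 CPM in control, and BTC and NRG1 stayed below 1 CPM; genes are not to be compared with each other on this axis, which is not corrected for transcript length.

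The comparison of LPS with control sets 1 library of cells given LPS for 2 h beside 1 library of untreated cells. EREG was the 1 member called among the 8 compared, where 1.81% of all 13551 genes were called (1.6% higher and 0.207% lower). Its CPM in LPS was 2.38 times that in control (2.31 to 2.45), a log2(CPM + 1) difference of 1.25 that ranked 149 from the highest of 13551. HBEGF was 1.17-fold (1.05 to 1.30) and EGFR 1.24-fold (1.16 to 1.32) the control level, and ERBB2 was 0.801 of it (0.746 to 0.860), all within 2-fold. The intervals of AREG (1.15, 0.963 to 1.36), EPGN (0.961, 0.652 to 1.41), TGFA (0.962, 0.512 to 1.79) and ERBB3 (0.831, 0.639 to 1.08) included 1. The median log2 difference of the 8 was 0.08, against -0.09 over all genes compared. In the same libraries all 10 genes of a list of LPS response genes were called higher, among them the neutrophil chemokine gene CXCL8 at 1657 CPM in LPS and 24.5 CPM in control. The antisense gene EGFR-AS1, which overlaps EGFR and was looked up for that reason, had 32 counts in LPS and 9 in control. Reads of the antisense gene and of EGFR cannot be told apart if the counting ignored strand.

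The transfected libraries are each compared with the LPS library, which both comparisons share and which also enters LPS against control, so the 3 sets of ratios are not independent. None of the 8 members compared was called in siOCLN+LPS over LPS, where 7.25% of 13505 genes were called (3.32% higher and 3.92% lower), and 1 of 8, EPGN, was called lower in the library labelled wtOCLN+LPS over LPS, where 7.01% of 13493 genes were (3.32% higher and 3.69% lower). Of the 8 members compared, EREG, HBEGF and EPGN were lower than LPS in both transfected libraries and EGFR, ERBB2 and ERBB3 were higher in both, with counting intervals that left out 1. BTC, under 1 CPM and so not among the 8, had 4 and 10 counts in the transfected libraries and 0 in LPS. The median log2 difference of the 8 members was -0.004 in siOCLN+LPS over LPS. It was 0.50 for the 3 receptor genes and -0.49 for the 5 compared ligand genes. In the library labelled wtOCLN+LPS over LPS these medians were 0.001, 0.45 and -0.61. With the control library in place of LPS, EREG lay above control in both (1.59- and 1.55-fold). Of the other compared ligand genes, HBEGF (log2 differences of -0.27 and -0.42) and EPGN (-0.95 and -1.05) lay below control. AREG (0.10 and 0.08) and TGFA (0.05 and 0.08) lay slightly above it. The receptor genes stayed above control, EGFR by 0.49 and 0.61, ERBB2 by 0.18 and 0.14, and ERBB3 by 0.56 and 0.44. The lower median of the ligand genes was therefore one against the LPS library.

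EREG in siOCLN+LPS was 0.671 of the LPS level (0.654 to 0.688). In the library labelled wtOCLN+LPS it was 0.653 of it (0.636 to 0.670). HBEGF was 0.708 of it (0.633 to 0.791) in siOCLN+LPS, with 0.636 (0.567 to 0.714) in the library labelled wtOCLN+LPS. EPGN was 0.412 of it (0.249 to 0.668) in siOCLN+LPS, with 0.366 (0.216 to 0.604) in the library labelled wtOCLN+LPS. On the log2(CPM + 1) scale the EPGN differences were -0.90 and -1.002, so one fell just short of the threshold and the other just past it, on 24 to 52 counts. For AREG the ratios were 0.937 (0.793 to 1.11) and 0.924 (0.782 to 1.09), and both intervals of TGFA also included 1.

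ERBB3 was 1.83-fold the LPS level (1.45 to 2.33) in siOCLN+LPS, with 1.68-fold (1.33 to 2.15) in the library labelled wtOCLN+LPS. ERBB2 was 1.41-fold (1.32 to 1.51) and 1.37-fold (1.28 to 1.47) in the same order, and EGFR 1.14-fold (1.07 to 1.21) and 1.24-fold (1.17 to 1.31). None of these reached 2-fold on the log2(CPM + 1) scale, where the largest was 0.79 for ERBB3 in siOCLN+LPS. ERBB2 overlaps PGAP3 and MIEN1 on the opposite strand, so the limit on strand given for EGFR holds for it too. The summed level of the 3 receptor genes was 307 CPM in siOCLN+LPS, 315 CPM in the library labelled wtOCLN+LPS, 242 CPM in LPS and 240 CPM in control, while that of the 6 EGFR ligand genes, mostly EREG, was 687, 666, 1014 and 460 CPM.

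The median log2 difference of all genes compared was -0.13 in siOCLN+LPS over LPS, with -0.15 in the library labelled wtOCLN+LPS over LPS when libraries were scaled by their totals, and 0.01 in both with TMM scaling. Relative to those medians the differences in siOCLN+LPS were -0.45 for EREG, -0.36 for HBEGF, -0.77 for EPGN, 0.31 for EGFR, 0.62 for ERBB2 and 0.92 for ERBB3. In the library labelled wtOCLN+LPS they were -0.47, -0.49, -0.86, 0.45, 0.60 and 0.83 in the same order. Of all called genes, 45.9% were higher in siOCLN+LPS by library totals and 61.5% with TMM, and 47.4% and 64.9% in the library labelled wtOCLN+LPS. Under total, TMM, median ratio and upper quartile scaling these 6 genes kept their directions against LPS. AREG changed sign under TMM and median ratio scaling in both transfected libraries, and under upper quartile scaling in siOCLN+LPS.

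The transfected libraries also differed from LPS across other gene groups. Of a list of 15 interferon-stimulated genes, 15 were called higher in each transfected library, against 3.32% of all genes compared. This list, like the others, was chosen with earlier results of these data known. Its summed level was 1479 CPM in siOCLN+LPS. The sum was 3625 CPM for the library labelled wtOCLN+LPS, against 265 CPM in LPS. The 10 LPS response genes summed to 9156 and 9265 CPM in the transfected libraries in the same order, against 6952 CPM in LPS and 352 CPM in control. The leukocyte list summed to 5.09 and 8.06 CPM in siOCLN+LPS and the library labelled wtOCLN+LPS, against 17.7 CPM in LPS and in control, almost all of it CD68. The fibroblast list summed to 106 and 111 CPM against 76.7 CPM in LPS and 70.4 CPM in control, of which PDGFRB made 49.4 and 55.4 CPM against 13.8 and 12.3 CPM. The endothelial list summed to 1.54 CPM in both, against 1.59 CPM in LPS and 0.441 CPM in control. The epithelial list summed to 2361 and 2469 CPM against 1288 CPM in LPS and 1529 CPM in control. In bulk RNA fewer cells of a kind and less RNA per cell cannot be told apart, and the part of these shifts in the ligand and receptor values was not tested.

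**Figure D2:**
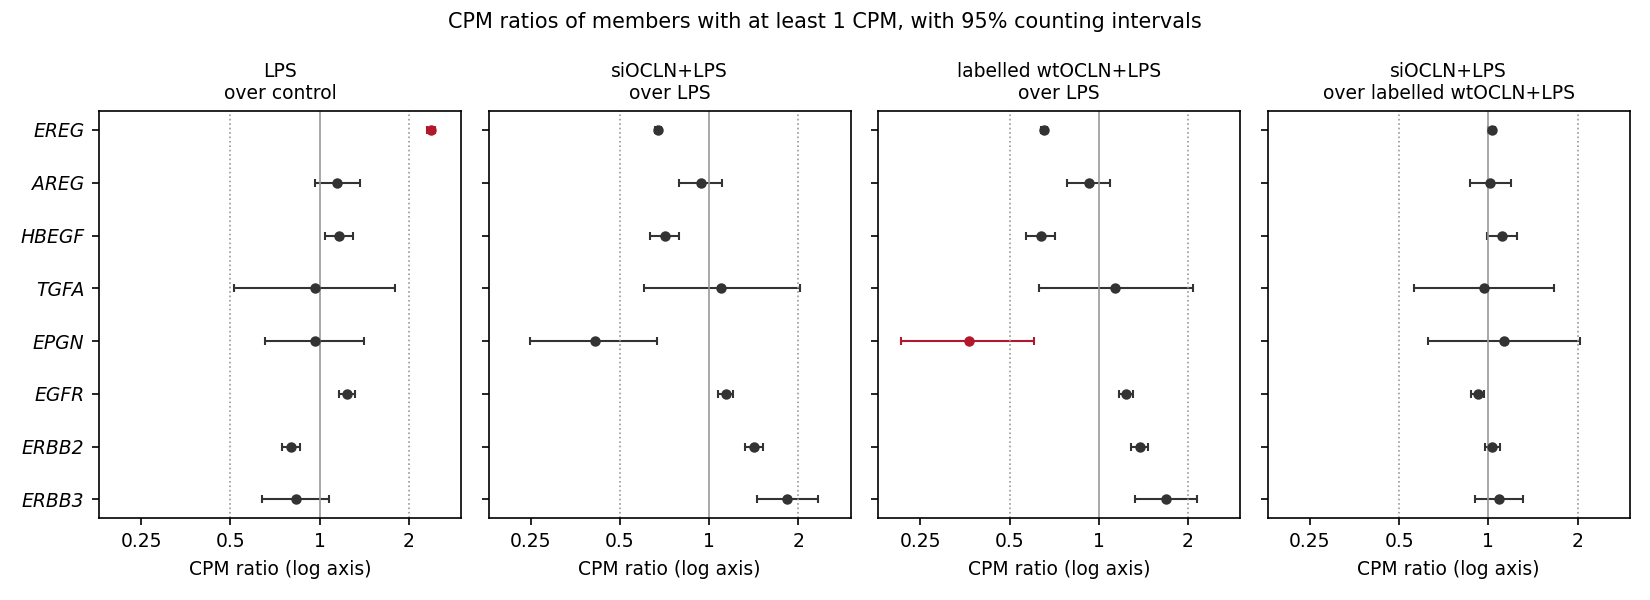
CPM ratios on a log axis for the 8 members with at least 1 CPM, with exact 95% counting intervals, in 4 comparisons; dotted lines mark 2-fold and red marks genes called on the log2(CPM + 1) scale. EREG stands at 2.38 in LPS over control, and against LPS the ligand genes EREG, HBEGF and EPGN lie left of 1 and the receptor genes right of 1 in both transfected libraries.

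In siOCLN+LPS over the library labelled wtOCLN+LPS, 0 of 8 members were called, where 0.366% of 13109 genes were (0.0763% higher and 0.29% lower). EREG was 1.03-fold (1.001 to 1.06), HBEGF 1.11-fold (0.989 to 1.25), EPGN 1.13-fold (0.626 to 2.04), ERBB2 1.03-fold (0.972 to 1.09) and ERBB3 1.09-fold (0.902 to 1.31). EGFR was 0.921 of the level in the library labelled wtOCLN+LPS (0.874 to 0.970). OCLN itself was at 0.708 of that level (0.618 to 0.811), and 11 of the 15 interferon-stimulated genes were called lower. The interval of EPGN did not leave out 2-fold.

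Of the 5 other genes of the family on the list, 2 were compared and the rest had at most 2 counts in any library. NRG2, a neuregulin gene, had 77, 76, 19 and 31 counts in siOCLN+LPS, the library labelled wtOCLN+LPS, LPS and control, with both transfected libraries highest. It was called higher in both against LPS, at 3.22-fold (1.93 to 5.63) and 3.17-fold (1.90 to 5.55), where 3.32% of all genes compared were in each. NRG4, a ligand of ERBB4, had 24, 15, 33 and 30 counts and was not called. NRG3 had 2 counts in siOCLN+LPS and 0 in the others.

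Of 10 listed genes of ligand release, 9 were compared, and none was called in LPS over control, where 1.81% of all genes compared were. ADAM19, a membrane protease, was called lower in both transfected libraries, with 7 counts in siOCLN+LPS, 14 in the library labelled wtOCLN+LPS, 51 in LPS and 66 in control. It was the 1 gene of the 9 called in each comparison with LPS, where 3.92% and 3.69% of all genes compared were called lower. Its ratio over LPS was 0.109 (0.0417 to 0.241) in siOCLN+LPS, with 0.218 (0.111 to 0.399) in the library labelled wtOCLN+LPS. ADAM17, the main sheddase of EREG, AREG and HBEGF, was picked out for that role after its values were seen. It stood at 92.1, 94.97, 129 and 106 CPM in the same order, lowest in the transfected libraries and within 2-fold throughout. The list as a whole was mixed, with 5 of the 9 genes higher than LPS and 4 lower in each transfected library. The list median was -0.11 in LPS over control, 0.002 in siOCLN+LPS over LPS, and 0.15 for the library labelled wtOCLN+LPS over LPS, against -0.09, -0.13 and -0.15 over all genes compared.

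Negative regulators of the receptors numbered 12, all compared. LRIG1, which promotes receptor degradation, was the 1 called in LPS over control, at 155 CPM in LPS and 69.9 CPM in control, 2.23-fold (2.07 to 2.39). In that comparison 1.6% of all genes compared were called higher and 0.207% lower. ERRFI1, an inhibitor of the EGFR kinase that EGFR signalling induces, stood at 1689 CPM in siOCLN+LPS, 1578 CPM in the library labelled wtOCLN+LPS, 793 CPM in LPS and 694 CPM in control. It was called higher in siOCLN+LPS (2.13-fold, 2.08 to 2.18), while its 1.99-fold in the library labelled wtOCLN+LPS (1.95 to 2.03) was just short of the threshold and past it under TMM, median ratio and upper quartile scaling. Of 20 adaptors and RAS-ERK cascade genes, PIK3R1, a PI3-kinase regulatory subunit, was the 1 called in siOCLN+LPS, at 311, 282, 146 and 154 CPM in the same order (2.13-fold over LPS, 2.03 to 2.24). In the library labelled wtOCLN+LPS it was 1.93-fold (1.83 to 2.03), called only under those 3 other scalings. In siOCLN+LPS over LPS, where each list had 1 gene called, 3.32% of all genes compared were called higher and 3.92% lower. The medians of these 2 lists over LPS were -0.11 for the regulators and -0.10 for the cascade in siOCLN+LPS, and -0.15 and -0.05 for the library labelled wtOCLN+LPS. GAB1, an adaptor, had the largest difference of the cascade list in LPS over control, at 0.733 (0.615 to 0.873).

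Genes known as outputs of ERK signalling differed in direction by gene. Of 9 compared of 10 listed, 1 was called higher in LPS over control, where 1.6% of all genes compared were. It was the ERK phosphatase gene DUSP6 (2.05-fold, 1.93 to 2.19), at 201 CPM in LPS and 97.7 CPM in control. In siOCLN+LPS over LPS 4 were called lower and 0 higher, where 3.92% and 3.32% of all genes compared were. In the library labelled wtOCLN+LPS over LPS 3 were lower and 0 higher, against 3.69% and 3.32% of all genes compared. ETV4, an ETS transcription factor gene, stood at 3.89 CPM in siOCLN+LPS, 3.71 CPM in the library labelled wtOCLN+LPS, 14.2 CPM in LPS and 18.6 CPM in control. ETV5, another ETS factor, stood at 10.1, 12.5, 33.0 and 39.7 CPM in the same order. SPRY4, an inhibitor of receptor tyrosine kinase signalling, stood at 38.4, 39.0, 96.8 and 86.7 CPM. For all 3 the transfected libraries lay below both others, at 0.261 to 0.402 of the LPS level. CCND1, the cyclin D1 gene, stood at 91.4, 124, 216 and 196 CPM and was called in siOCLN+LPS (0.423, 0.398 to 0.449) and not in the library labelled wtOCLN+LPS (0.574, 0.543 to 0.606). The list median was -0.38 in siOCLN+LPS, with -0.48 in the library labelled wtOCLN+LPS, against -0.13 and -0.15 over all genes compared.

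Of 15 immediate early genes that follow EGFR activation, 1 was called in LPS over control, the stress-response gene IER3, at 441 CPM in LPS and 125 CPM in control, where 1.6% of all genes compared were called higher. In siOCLN+LPS over LPS 3 were called lower, against 3.92% of all genes compared: the AP-1 gene FOSB (0.407, 0.364 to 0.454), the stress factor gene ATF3 (0.418, 0.360 to 0.484) and the zinc finger factor gene EGR3 (0.462, 0.374 to 0.569). In the library labelled wtOCLN+LPS, ATF3 (0.482, 0.418 to 0.554) and EGR3 (0.379, 0.302 to 0.473) were called lower, against 3.69% of all genes compared, and FOSB was 0.508 of the LPS level (0.459 to 0.563). Under TMM, median ratio and upper quartile scaling EGR3 was no longer called in siOCLN+LPS, nor ATF3 in the library labelled wtOCLN+LPS. The list median was 0.44 in LPS over control, -0.53 in siOCLN+LPS over LPS, with -0.35 in the library labelled wtOCLN+LPS over LPS, against -0.09, -0.13 and -0.15 over all genes compared.

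**Figure D3:**
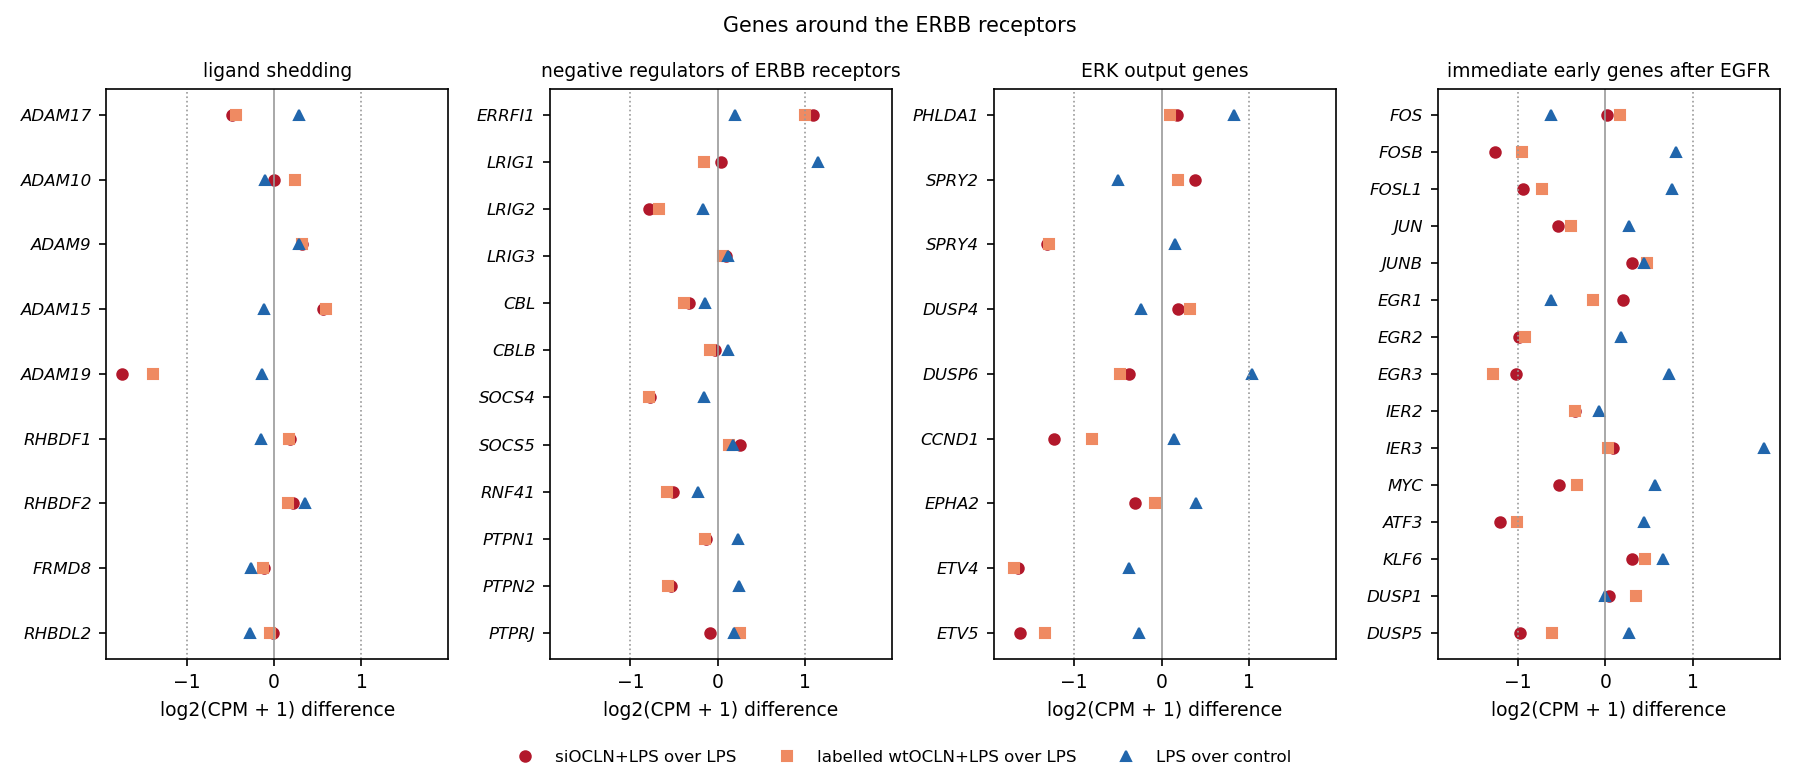
Differences in log2(CPM + 1) for the compared genes of 4 lists, with circles for siOCLN+LPS over LPS, squares for the library labelled wtOCLN+LPS over LPS and triangles for LPS over control; dotted lines mark 2-fold. ETV4, ETV5 and SPRY4 lie left of the line for 2-fold lower in both transfected libraries, and DUSP6 and IER3 lie right of the line for 2-fold higher in LPS over control.

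Outside the row of ligand genes on chromosome 4, MTHFD2L, a folate metabolism enzyme gene beside EPGN, stood at 2.06 CPM in siOCLN+LPS, 3.89 CPM in the library labelled wtOCLN+LPS, 4.76 CPM in LPS and 4.47 CPM in control. PARM1, beside BTC, had 1 count in the library labelled wtOCLN+LPS and 0 in the others.

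Among 11015 genes at a mean of 5 CPM or more, those whose 4 values lay closest to EREG, by Euclidean distance of mean-centred log2(CPM + 1), were the protein kinase A anchor gene AKAP2 (0.06), TWIST1 (0.09) and HIVEP2 (0.09), both transcription factor genes. TWIST1 stood at 69.5 CPM in siOCLN+LPS, 63.8 CPM in the library labelled wtOCLN+LPS, 106 CPM in LPS and 41.9 CPM in control, the order of EREG. The genes were picked for closeness over these same values, so the shared order is no separate result. Closest to EPGN were the activin receptor gene ACVR2A (0.04), the snoRNA host gene SNHG4 (0.05) and the HSP70 family gene HSPA13 (0.05). EREG and EPGN were the members whose values spanned 1 or more on that scale, at 1.25 and 1.05. The distance is over 4 libraries only. EPGN itself, at 1.37 to 3.90 CPM, was below the limit of 5 CPM set for the genes searched. Changes of such low genes look smaller on this scale, so its distances depend on the pseudocount.

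**Figure D4:**
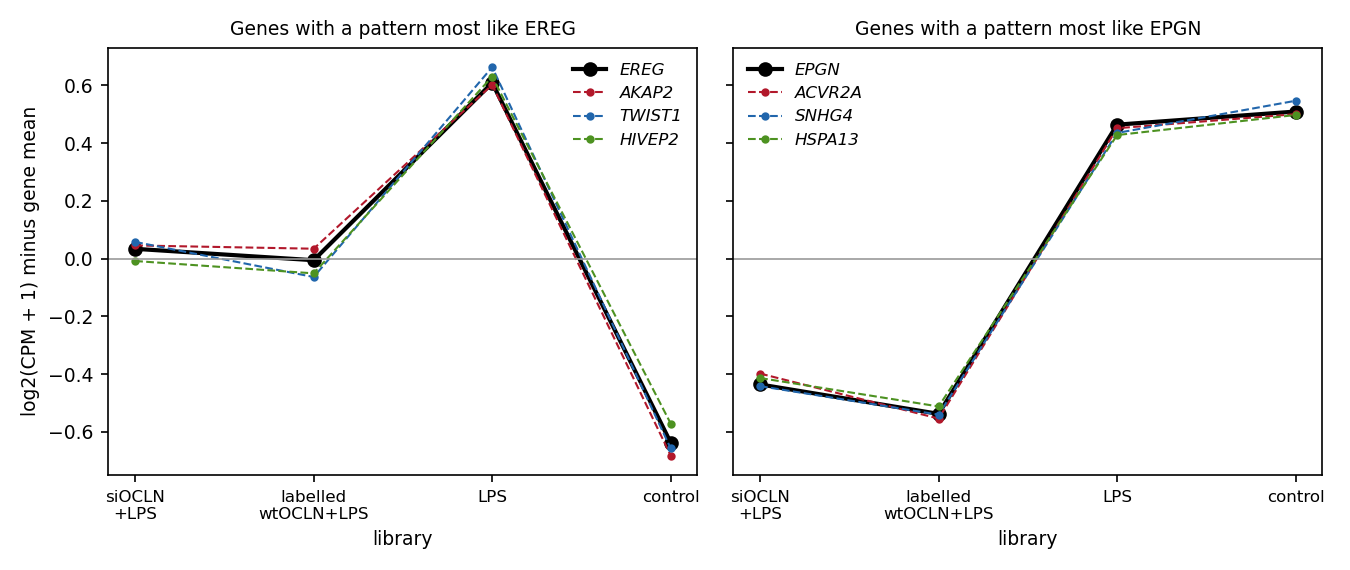
Mean-centred log2(CPM + 1) in the 4 libraries for EREG (left) and EPGN (right), in black, with the 3 genes closest to each in colour. EREG and its neighbours are highest in LPS and lowest in control, and EPGN and its neighbours are low in both transfected libraries. The neighbours were picked for this likeness.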

How the data were processed

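Per the labels' protocols, directional libraries of BEAS-2B cells were built from 1.3 µg of RNA. The authors deposited raw read counts, whole numbers, of 24424 symbols for each of 4 libraries. The submitters' processing notes name TopHat, Cufflinks and hg19. Not given in the sources used here are the counting tool, its strand setting, the annotation and how multi-mapping reads were treated. Groups were taken from the treatment labels, with 1 library each.

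Counts were scaled to CPM by library total (13867494 to 17500031). Differences were taken on log2(CPM + 1) where either library reached 1 CPM, and called at 2-fold. CPM ratios carry exact 95% Clopper-Pearson intervals, and single CPM values exact Poisson intervals. They cover counting error only, since reads without molecular identifiers are not independent molecules. Without replicates there is no p-value, since the quasi-likelihood test of edgeR has no residual degrees of freedom. The members and gene lists were chosen with earlier results of these data known. The genes named are all members, OCLN, the genes next to a member (given for chromosome 4), up to 4 called genes of each list and comparison or else the 1 with the largest difference, and the 3 closest in pattern to a member that spanned 1 on the log2 scale. Genes named outside this rule are marked, apart from EGF, ERBB4 and NRG3 of the list of other family genes.

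The longest GENCODE 29 transcript of a symbol gave its length and GC content, and RefSeq (GRCh38.p14) its promoter. Neither is on hg19, so the counts are given no coordinates. The calling step was tested on simulated counts. Alternatives were pseudocounts of 0.1 and 5, no filter and a 5 CPM filter, thresholds of 1.5-fold and 3-fold, TMM, median ratio and upper quartile scaling, removal of length and GC bins, and the control library in place of LPS. The scaling alternatives for the pathway lists were added after seeing the data. Software was edgeR 4.0.16 in R 4.3.3, and matplotlib 3.10.9, pandas 2.3.3, SciPy 1.17.1 and NumPy 2.4.6 in Python 3.11.15.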

Additional observations from a re-analysis of the deposited data

How the results depend on the processing

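No paired analysis was possible because each group has 1 library and the labels give no replicate numbers, and leaving out a replicate was not possible for the same reason. The number of members called in LPS over control, 1, fell to 0 at a 3-fold threshold. In siOCLN+LPS over LPS it was 0, 1 with a pseudocount of 0.1 CPM (EPGN lower) and 2 at 1.5-fold (ERBB3 higher, EPGN lower). In the library labelled wtOCLN+LPS over LPS it was 1 (EPGN), 4 at 1.5-fold (ERBB3 higher; EREG, HBEGF and EPGN lower), and 0 with a pseudocount of 5 CPM, a 5 CPM filter, a 3-fold threshold, TMM, median ratio or upper quartile scaling, or length and GC bins removed. The call of EPGN therefore depends on the setting. Between the transfected libraries it was 0 under every alternative. With a pseudocount of 0.1 CPM, 502 genes in all were called in LPS over control (245 with 1 CPM), 1539 in siOCLN+LPS over LPS (979), 1527 in the library labelled wtOCLN+LPS over LPS (946) and 161 between the transfected libraries (48). With 5 CPM these were 136, 415, 427 and 22, at 1.5-fold 846, 3288, 3195 and 255, and at 3-fold 94, 228, 236 and 10. Against LPS, AREG changed sign under TMM and median ratio scaling in both transfected libraries and under upper quartile scaling in siOCLN+LPS, AREG and EREG did so in both with control in place of LPS, and EPGN and TGFA did so in LPS over control under TMM, median ratio and upper quartile scaling and with length and GC bins removed. Genes under about 60 counts, such as EPGN and TGFA, are limited by depth.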
